A study of Mus musculus with 43 samples.

Results

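Ly6Chi and Ly6Clo mononuclear cells from the lungs of newborn mice kept in normoxia (room air) were compared gene by gene. The comparison holds 11 of the 43 libraries of the series, chosen by their labels alone: 6 libraries of Ly6Chi cells, gated as high in Ly6C and low in CD11c, and 5 libraries of Ly6Clo cells, gated as low in Ly6C and high in CD11c. All pups were newborn C57BL/6 mice with no further allele named, and they had been assigned at random, within 6 h of birth, to normoxia or to a fraction of inspired oxygen of 0.9 for 1.5 days. The Ly6Chi libraries hold 2 of each of the litters 93, 100 and 108, and the Ly6Clo libraries hold 2 of litter 93, 2 of litter 100 and 1 of litter 108. The other 32 libraries are hyperoxic cells of the same gates (5 each) and normoxic and hyperoxic alveolar macrophages (AM) and dendritic cells (DC), which are used below only as points of comparison. Cells were sorted straight into lysis buffer. A gate takes every cell with the right surface proteins, so each group can hold more than 1 cell type. Which pup or pups each library came from is not stated, so p-values measure the spread between libraries, which may be technical in part.

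Ly6C is a small surface protein that is abundant on classical monocytes, the blood cells that enter inflamed tissue, and scarce on patrolling non-classical monocytes and on most macrophages. CD11c is the alpha chain of an integrin carried by dendritic cells and, in the lung, by alveolar macrophages. Around birth, monocytes that seeded the fetal lung turn into alveolar macrophages in response to GM-CSF and TGF-beta, through the lipid-sensing nuclear receptor PPARgamma, and take up the handling of surfactant lipid and of dead cells.

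The Ly6Chi libraries held 1525352 to 2393286 counts and the Ly6Clo libraries 1177993 to 1746742. Genes with at least 1 count numbered 15064 ± 460 in Ly6Chi and 15078 ± 537 in Ly6Clo (SD, n = 6 and 5, two-sided exact permutation p = 0.95). With every library thinned to the smallest total the numbers were 14373 ± 348 in Ly6Chi and 14836 ± 437 in Ly6Clo (exact permutation p = 0.0758). Summed Y-linked counts were at or above 322 CPM in 3 of 6 Ly6Chi and 3 of 5 Ly6Clo libraries and at or below 7.1 CPM in the others. In both groups the high ones were replicate 1, of litter 93, and all libraries of litter 100. Xist, a transcript of female cells, stood at 0.418 and 141 CPM in Ly6Chi replicates 1 and 2, and at 0.615 and 225 CPM in Ly6Clo replicates 1 and 2. Within each group the libraries of litter 93 thus came from different pups. The first principal component, 47.7% of the variance, separated the populations, and the second, 12% of it, set replicate 3 of both groups (litter 100) apart from the rest. Levels are given as counts scaled to library size (CPM, counts per 1e+06 counts) after TMM normalisation, with SD between libraries. Every fold change is log2, Ly6Chi over Ly6Clo, with its standard error (SE). Genes were tested with edgeR's quasi-likelihood test with litter as a block and called at a Benjamini-Hochberg adjusted p under 0.05 over all genes tested. Since counts were not divided by gene length, levels are compared between libraries for the same gene and not between genes. Counts of abundant genes may have a ceiling: Tmsb4x had 1007 to 1175 counts in the 11 libraries, although totals differed up to 2.03-fold. Ly6Clo libraries were shallower on average, so an abundant gene near such a ceiling can look higher in Ly6Clo CPM. A fit corrected for an assumed limit of 2 reads per exonic base was made. Of the named genes, Ifngr1 gained a call in it and none lost its call. Whether such a limit holds in these libraries was not tested.

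Of 10950 genes tested, 3380 (30.9%) were called: 1811 (16.5%) were higher and 1569 (14.3%) lower in Ly6Chi than in Ly6Clo. The counts of called genes in the lists below are to be read beside these shares. Past a change of 2-fold, tested as such with edgeR's glmTreat, there were 605 genes, of which 237 (2.16%) were higher and 368 (3.36%) lower. Within the 3 litters taken singly, 3349 of the 3380 called genes (99.1%) had the same sign in all 3, where litter 108 rests on 1 Ly6Clo library. The signs come from the libraries that made the calls, so this agreement was largely fixed by the choice of genes. All 605 genes past 2-fold had the same sign in all 3 litters. The library values of 594 of them did not overlap between the groups, against 1769 of the 3380 called genes. Genes chosen for a large change in these libraries can hardly overlap in them, so this count is no separate support. Overlap was not counted over all 10950 genes tested, so these counts have no background share. The median size of the change among called genes was 0.92 on the log2 scale, and the median change of all genes tested was 0.03. Leaving out Ly6Clo replicate 5, the one normoxic Ly6Clo library of litter 108, brought the calls to 2252, and leaving out litter 93 or litter 108 brought them to 1883 or 2022. Without Ly6Chi replicate 3 or Ly6Clo replicate 3, which stood apart on the second component, 3638 or 2997 genes were called. No called gene took the opposite call in any of these fits.

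**Figure D1:**
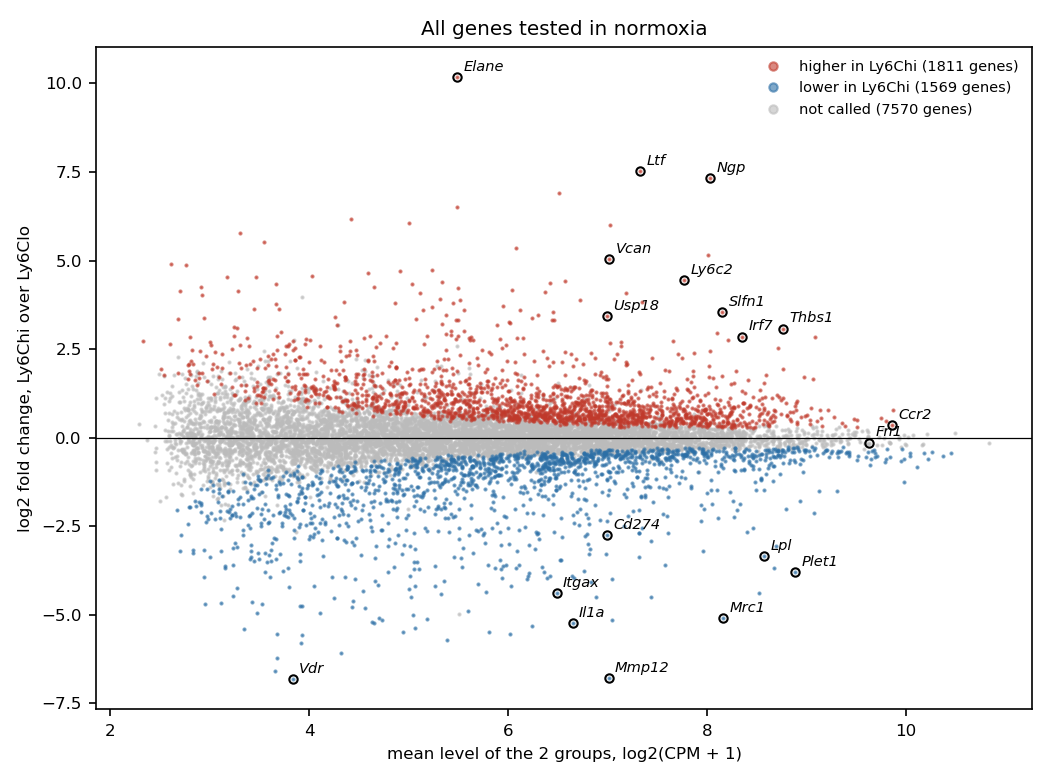
Each point is 1 of the 10950 genes tested, with its mean level on the x axis (log2 of CPM + 1) and its log2 fold change, Ly6Chi over Ly6Clo, on the y axis. The 1811 genes higher in Ly6Chi are red and the 1569 lower are blue, and the circled genes are named in the text. The fitted value of Elane, which had no count in any Ly6Clo library, depends on the prior count and is no bound.

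The genes of the gate proteins were measured first. Ly6c2 stood at 351, 402 and 528 CPM in Ly6Chi (lowest, median and highest of 6 libraries), against 25.8, 20.5, 23.6, 13.3 and 12.2 CPM in the 5 Ly6Clo libraries. The lowest Ly6Chi library lay far above the highest Ly6Clo library (log2 fold change 4.44 ± 0.20, edgeR adjusted p = 1.5e-08). Ly6c1, a near-identical neighbour whose reads may be shared with Ly6c2, differed less (1.60 ± 0.35, edgeR adjusted p = 0.00313), its libraries overlapped, and without litter 93 its adjusted p was 0.0822. Itgax, which encodes CD11c, stood at 3.72, 6.32 and 15.7 CPM in Ly6Chi, against 157, 154, 195, 161 and 182 CPM in Ly6Clo (−4.39 ± 0.28, edgeR adjusted p = 2e-07). These 2 genes follow the gates and are a check of the labels, not a finding. Siglecf, the gene of the Siglec-F protein used to gate AM, stood at 0.55, 2.24 and 6.10 CPM in Ly6Chi, against 9.22, 9.44, 21.9, 27.2 and 31.3 CPM in Ly6Clo (−2.98 ± 0.43, edgeR adjusted p = 0.000157). Normoxic AM, scaled with all 43 libraries, averaged 131 CPM, so the Ly6Clo gate held little of it beside AM and more than Ly6Chi did. Among MHC class II genes, whose products present peptides to helper T cells, H2-Ab1 stood at 58.9, 88.2 and 157 CPM in Ly6Chi, against 181, 186, 132, 101 and 95.7 CPM in Ly6Clo, with overlap between the groups (−0.46 ± 0.21, edgeR adjusted p = 0.106), and averaged 1188 CPM in normoxic DC. Its partner H2-Aa was not called either (−0.24 ± 0.46, edgeR adjusted p = 0.726). H2-Ab1 was called lower in Ly6Chi without Ly6Chi replicate 4.

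**Figure D2:**
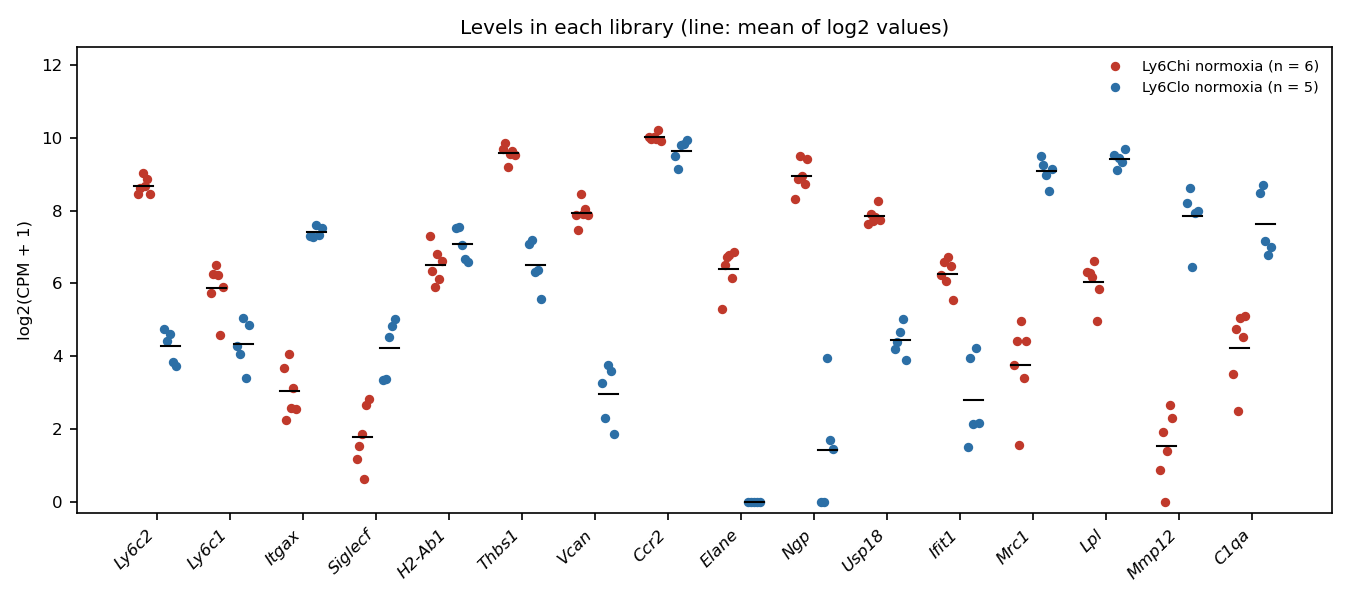
Levels of 16 genes in each of the 11 libraries as log2(CPM + 1), with the 6 Ly6Chi libraries in red on the left of each pair and the 5 Ly6Clo libraries in blue on the right. Lines are means of the log2 values. Ly6c2, Itgax, Thbs1, Vcan, Elane, Ngp, Usp18, Ifit1, Mrc1, Lpl, Mmp12 and C1qa do not overlap between the groups, while H2-Ab1 and Ccr2 do.

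Ly6Chi cells carried the genes of classical monocytes. Of 16 measured classical monocyte markers, 13 were higher in Ly6Chi, none was lower and 3 were not called, with a median log2 fold change of 1.47. The 13 include Ly6c2, which follows the gate. Vcan, which encodes the matrix proteoglycan versican, stood at 175, 236 and 353 CPM in Ly6Chi, against 8.60, 3.89, 12.6, 11 and 2.61 CPM in Ly6Clo (5.04 ± 0.25, edgeR adjusted p = 3.09e-08). The groups were far apart, but Vcan was among the genes chosen for a large change without overlap. Thbs1, the gene of the adhesive glycoprotein thrombospondin-1, averaged 773 ± 115 CPM in Ly6Chi and 97.5 ± 41.7 CPM in Ly6Clo (3.08 ± 0.18, edgeR adjusted p = 1.08e-07). Ms4a4c, a membrane protein gene of monocytes, differed by 2.96 ± 0.19 (edgeR adjusted p = 2.2e-07) and the haemoglobin-binding protein gene Hp by 2.55 ± 0.18 (edgeR adjusted p = 3.28e-07).

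Not every gene of that list followed. Ccr2, the receptor by which monocytes leave the marrow, stood at 971, 1024 and 1192 CPM in Ly6Chi, against 726, 567, 902, 907 and 978 CPM in Ly6Clo. The groups overlapped and the change was small (0.35 ± 0.11, edgeR adjusted p = 0.0301). The Ccr2 call was lost in 9 of 26 alternative fits. Among these were the fits without Ly6Chi replicate 1, 2 or 5 and without Ly6Clo replicate 1 or 2. Without litter 93 it was lost too, with a log2 fold change of 0.12 (edgeR adjusted p = 0.61). Fn1, the fibronectin gene, averaged 763 ± 87.7 CPM in Ly6Chi and 819 ± 109.7 CPM in Ly6Clo and was not called (edgeR adjusted p = 0.246), nor was the chitinase-like gene Chil3 (0.17 ± 0.21, edgeR adjusted p = 0.582). 

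Of 15 markers of non-classical monocytes, the patrolling cells that are low in Ly6C, 2 were higher in Ly6Chi, 6 were lower and 7 were not called (median −0.24). The 2 higher ones are a share near the 16.5% of all genes called higher. Nr4a1, the nuclear receptor that non-classical monocytes need, stood at 179.9, 260.4 and 485 CPM in Ly6Chi, against 86, 112, 99.4, 103 and 37.4 CPM in Ly6Clo, higher in every Ly6Chi library (1.88 ± 0.21, edgeR adjusted p = 2.17e-05). It is also an immediate early gene, and 10 of the 16 measured immediate early genes, many of which are known to respond to tissue digestion, were higher in Ly6Chi and 2 lower (median 0.66). Junb (0.89 ± 0.11), Ier2 (0.92 ± 0.11) and Zfp36 (0.86 ± 0.10) were among those higher, and Ier3 (−1.18 ± 0.17) was lower. Their part in the Nr4a1 difference was not tested. The non-classical markers Treml4 (0.08 ± 0.19, edgeR adjusted p = 0.786) and Cx3cr1 of the interstitial macrophage list (−0.23 ± 0.19, edgeR adjusted p = 0.367) were not called. The 6 lower markers include Cd36, a fatty acid and scavenger receptor (−1.79 ± 0.28), the fatty acid binding protein gene Fabp4 (−3.44 ± 0.61) and the ribonuclease gene Ear2 (−1.18 ± 0.13), which normoxic AM expressed at 1028, 273 and 421 CPM on average. Ear2 has near-identical copies among which reads may be split. Gngt2, a G-protein subunit gene, was lower too (−0.94 ± 0.15). Adgre4, a receptor gene of these monocytes, was the other higher marker (0.83 ± 0.27, edgeR adjusted p = 0.0371) and lost its call in 14 of 26 alternatives. Without litter 100, 6 markers of the list were called higher.

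The genes that set Ly6Chi furthest apart encode the granule proteins of developing neutrophils. Of 17 measured neutrophil markers, 15 were higher in Ly6Chi, none lower and 2 not called, with a median log2 fold change of 4.41, and the number called higher was 12 to 18 in the 26 alternatives. Elane, the gene of neutrophil elastase, stood at 38.5, 96.9 and 116 CPM in Ly6Chi and had no count in any of the 5 Ly6Clo libraries, where 3 counts over the group would be 0.421 CPM, so the mean in Ly6Chi was at least 209-fold higher (edgeR adjusted p = 2.53e-06). Ngp, the neutrophilic granule protein gene, stood at 316, 478 and 731 CPM in Ly6Chi, against 0, 0, 14.3, 2.21 and 1.74 CPM in Ly6Clo (7.33 ± 0.50, edgeR adjusted p = 2.3e-06). Every Ly6Chi library was high in both genes, which were chosen for a large change without overlap between the groups. Among Ly6Clo libraries replicate 3 had the most Ngp.

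Ltf, which encodes the iron-binding protein lactoferrin, stood at 127, 264 and 725 CPM in Ly6Chi, against 0.615, 2.22, 2.53, 1.47 and 0 CPM in Ly6Clo (7.52 ± 0.56, edgeR adjusted p = 3.12e-06). Camp, the cathelicidin gene, differed by 6.92 ± 0.47 and the siderophore-binding lipocalin gene Lcn2 by 5.99 ± 0.55 (edgeR adjusted p = 4.62e-07 and 1.51e-05). Olfm4 (6.53 ± 0.84), a granule protein gene of a subset of neutrophils, the surface protein gene Cd177 (6.07 ± 0.75) and the cysteine protease inhibitor genes Stfa3 (5.34 ± 0.50) and Stfa2l1 (4.74 ± 0.71), which are near-identical copies of each other, were past 2-fold as well. Cebpe, the transcription factor gene that granule genes depend on, averaged 20.9 ± 8.71 CPM in Ly6Chi and 0.391 ± 0.543 CPM in Ly6Clo (5.53 ± 0.66, edgeR adjusted p = 2.88e-05).

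The granule genes were not uniform among the Ly6Chi libraries. Mpo, the myeloperoxidase gene, stood at 1.25, 17 and 112 CPM in Ly6Chi, so the highest library was far above the lowest, against 0, 0, 2.53, 0 and 0 CPM in Ly6Clo (6.18 ± 1.19, edgeR adjusted p = 0.00232), and the groups overlapped. Fcnb, a pattern-recognition lectin gene also found in monocytes, was steadier at 141, 188 and 212 CPM in Ly6Chi, against 1.84, 12.8, 7.58, 9.57 and 7.83 CPM in Ly6Clo (4.43 ± 0.27, edgeR adjusted p = 1.38e-07). Other neutrophil markers varied in size and stability. Mmp8, the neutrophil collagenase gene, stood at 449, 557 and 757 CPM in Ly6Chi, against 194, 199, 157, 167 and 218 CPM in Ly6Clo (1.56 ± 0.10, edgeR adjusted p = 2.25e-07). Cxcr2, the receptor that brings neutrophils to tissue, averaged 27.7 ± 16 CPM in Ly6Chi and 8.41 ± 1.65 CPM in Ly6Clo (1.42 ± 0.36, edgeR adjusted p = 0.00937; without Ly6Clo replicate 5 0.0521 and without litter 108 0.0996). Ly6g, the defining surface marker of mouse neutrophils, stood at 0, 3.37 and 7.41 CPM in Ly6Chi and at 0 in all 5 Ly6Clo libraries, too low to be tested. Retnlg (2.59 ± 1.38) and Mmp9 (0.78 ± 1.72) were not called, but Retnlg was called higher without Ly6Clo replicate 3 (7) or litter 100 (6.27), and Mmp9 without Ly6Clo replicate 2 (4.21) or litter 93 (4.14). S100a9, an abundant calcium-binding protein gene of neutrophils and monocytes, stood at 221, 276 and 438 CPM in Ly6Chi, against 6.76, 3.33, 147, 2.94 and 0.87 CPM in Ly6Clo (3.84 ± 0.94, edgeR adjusted p = 0.0176). Its call was lost without litter 93 (0.216) or litter 108 (0.0719), and Ly6Clo replicate 3 was the library that lay near the Ly6Chi range. Its partner S100a8 differed by 0.84 ± 0.17 (edgeR adjusted p = 0.00197, and 0.0675 without litter 93).

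Summed over the whole neutrophil list, Ly6Chi libraries held 2339 to 4265 CPM and Ly6Clo libraries 441.9 to 856.1. Fewer cells of a type and less RNA per cell cannot be told apart in bulk libraries, here and in every comparison that follows. In normoxic DC libraries Ngp averaged 102 CPM and Ltf 36.7 CPM, and in AM 5.07 and 1.57 CPM.

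Genes induced by type I interferon, a family of antiviral cytokines, were higher in Ly6Chi as a whole group. Of 34 listed genes 33 were tested and all 33 were called higher, with a median log2 fold change of 2.05, beside 16.5% of all genes called higher and a median of 0.03. In the 26 alternatives 32 or 33 of the list were higher and none was lower. In hyperoxia, in libraries that this fit did not use, 28 of the 33 were called higher and none lower, beside 31.7% of all genes called there in either direction. Summed over the list, Ly6Chi libraries held 6615 to 8861 CPM and Ly6Clo libraries 2034 to 2833, with no overlap.

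Usp18, a protease that removes the ubiquitin-like ISG15 from proteins and damps the receptor, stood at 197, 219 and 306 CPM in Ly6Chi, against 17.2, 20, 24.4, 31.7 and 13.9 CPM in Ly6Clo (3.43 ± 0.20, edgeR adjusted p = 1.07e-07). Mx1, an interferon-induced GTPase gene, stood at 109, 158 and 200 CPM in Ly6Chi, against 16, 21.1, 19.4, 15.5 and 1.74 CPM in Ly6Clo (3.55 ± 0.27, edgeR adjusted p = 6.2e-07). Irf7, the transcription factor gene that amplifies interferon production, stood at 399.8, 569 and 745 CPM in Ly6Chi, against 52.9, 89.9, 48, 142 and 61.8 CPM in Ly6Clo (2.85 ± 0.29, edgeR adjusted p = 2.34e-05). In all these genes each Ly6Chi library was above each Ly6Clo library. Ly6Clo replicate 5 was lowest of all in Usp18 and Mx1.

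Ifit1, whose product binds foreign RNA lacking cap methylation, stood at 45.3, 80.6 and 106 CPM in Ly6Chi, against 1.84, 14.4, 3.37, 17.7 and 3.48 CPM in Ly6Clo (3.32 ± 0.46, edgeR adjusted p = 0.000161). Ifit3 of the same family stood at 75.4, 122 and 135 CPM in Ly6Chi, against 16.6, 22.8, 18.5, 22.1 and 7.83 CPM in Ly6Clo (2.82 ± 0.21, edgeR adjusted p = 4.5e-07), and may share reads with its near-identical copy Ifit3b. Isg15 itself stood at 50.1, 71.7 and 90.1 CPM in Ly6Chi, against 12.3, 8.33, 13.5, 11 and 4.35 CPM in Ly6Clo (2.94 ± 0.23, edgeR adjusted p = 8.34e-07). Rsad2, the gene of the radical enzyme viperin, averaged 83.3 ± 30.4 CPM in Ly6Chi and 13.2 ± 6.23 CPM in Ly6Clo (2.77 ± 0.34, edgeR adjusted p = 3.4e-05).

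The changes in this group ranged from 0.68 for Ifitm3, a membrane protein gene that blocks viral fusion and that overlapped between the groups, to 4.18 for Cmpk2, a nucleotide kinase gene. Oasl1 (4.09 ± 0.47) and Xaf1 (1.85 ± 0.14) stood among the higher genes too. Other normoxic populations, scaled with all 43 libraries, held Usp18 at 175 CPM (DC) and 6.76 CPM (AM) and Irf7 at 280.5 CPM (DC) and 8.59 CPM (AM).

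**Figure D3:**
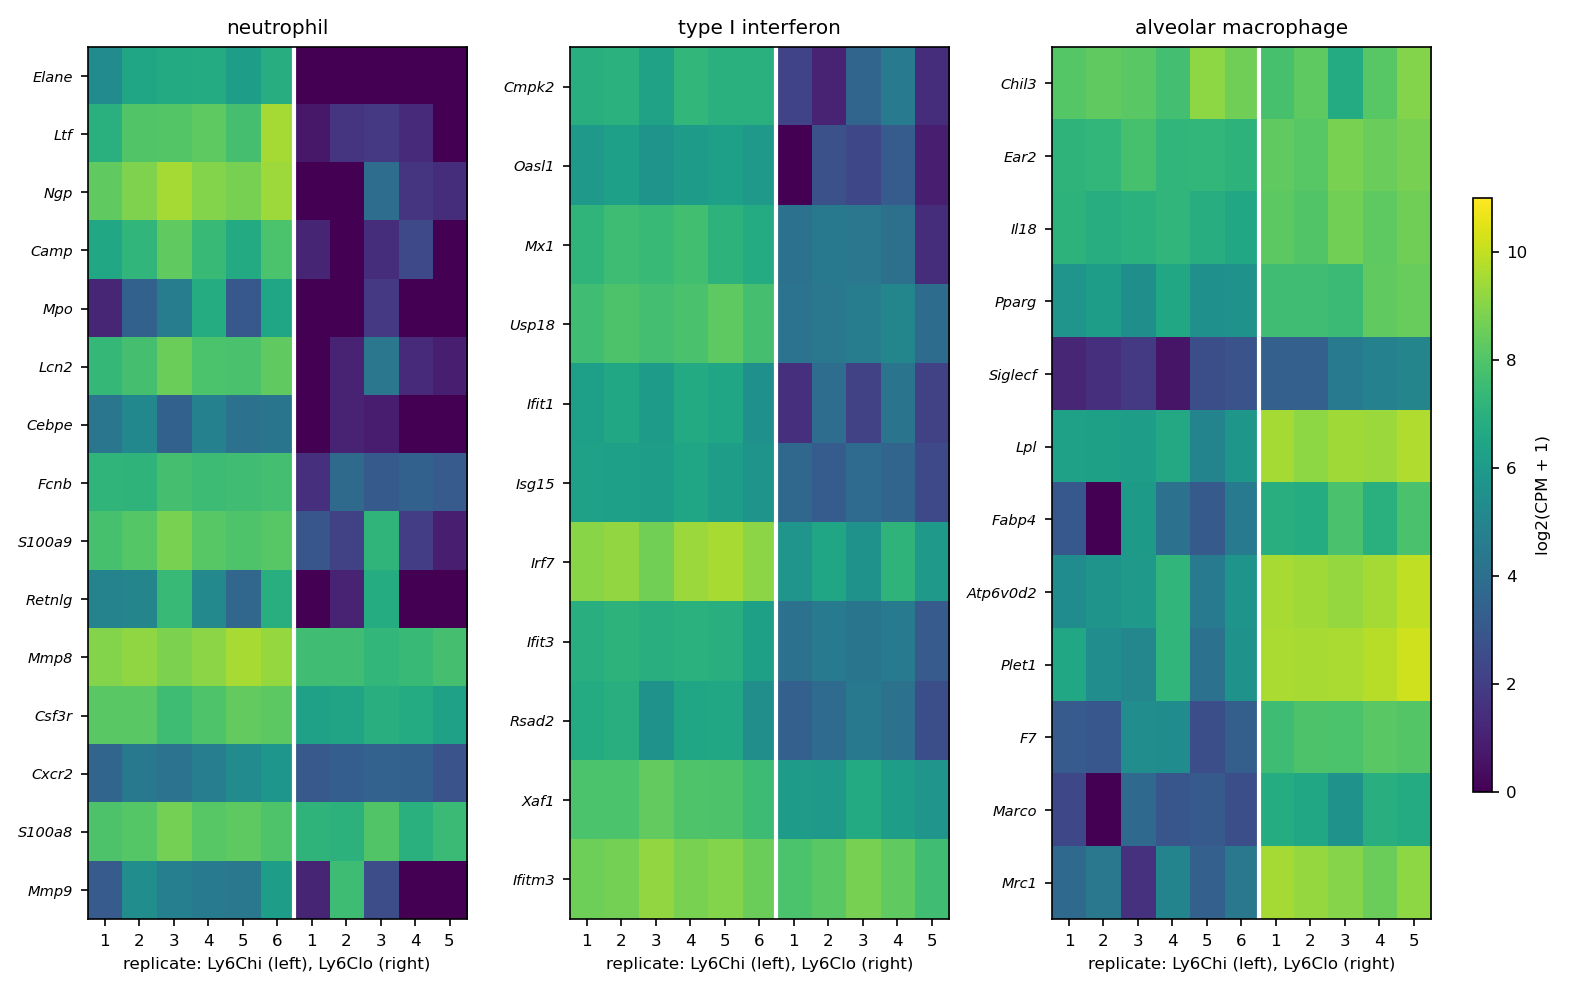
Heat maps of log2(CPM + 1) for the members of the neutrophil, type I interferon and alveolar macrophage lists that the text names and that were tested, 1 column per library with the 6 Ly6Chi libraries left of the white line and the 5 Ly6Clo libraries right of it. Genes are ordered by log2 fold change, highest at the top. Elane is at 0 in all Ly6Clo libraries, S100a9 and Retnlg are raised in Ly6Clo replicate 3, and the interferon genes are brighter in Ly6Chi.

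The promoters of several of these genes carry the interferon-stimulated response element, the sequence through which interferon acts on its target genes. The stretch from 160 to 51 bases before the start of transcription is shown for 4 genes whose values stand above, 5′ to 3′ on the strand of the gene, from RefSeq on build GRCm38.p6. Capitals mark GAAA, any 2 bases and GAAA again, on either strand.
Ifit3: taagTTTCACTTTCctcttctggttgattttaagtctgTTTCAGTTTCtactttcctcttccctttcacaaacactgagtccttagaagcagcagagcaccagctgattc
Ifit1: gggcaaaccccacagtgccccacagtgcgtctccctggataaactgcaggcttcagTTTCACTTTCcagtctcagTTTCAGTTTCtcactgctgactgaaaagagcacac
Isg15: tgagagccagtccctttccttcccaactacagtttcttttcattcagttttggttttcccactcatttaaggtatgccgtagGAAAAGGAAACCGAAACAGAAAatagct
Rsad2: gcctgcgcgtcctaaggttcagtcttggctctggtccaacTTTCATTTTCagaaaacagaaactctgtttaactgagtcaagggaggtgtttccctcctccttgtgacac
Ifit3 and Ifit1 hold 2 matches each in this stretch, Isg15 holds 3 that overlap and Rsad2 holds 1. The windows are chr19:34583369-34583478 (plus strand) for Ifit3, chr19:34640729-34640838 (plus strand) for Ifit1, chr4:156200869-156200978 (minus strand) for Isg15 and chr12:26456503-26456612 (minus strand) for Rsad2. Over windows from 250 bases before to 50 after each start, the letters were found in 13 of the 23 type I interferon genes that matched the table by symbol, against 3.99% of all 27025 genes in it. Among tested genes with a promoter in the table they were found in 7.49% of the 1415 called higher in Ly6Chi, in 3.34% of the 1198 called lower and in 3.38% of the 5556 not called. A match describes the letters and shows no binding.

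Genes that respond to interferon gamma overlap with this group and were called in part: 9 of 17 were higher in Ly6Chi, 1 was lower and 7 were not called (median 0.82). Irgm1 and Irgm2, immunity-related GTPase genes, differed by 1.70 ± 0.17 and 2.10 ± 0.28, Gbp3, a guanylate-binding protein gene, by 1.69 ± 0.21, and the peptide transporter gene Tap1 by 1.49 ± 0.17. The receptor chain gene Ifngr1 averaged 847 ± 99 CPM in Ly6Chi and 714 ± 119.9 CPM in Ly6Clo and was not called (edgeR adjusted p = 0.112), while Ifngr2 was slightly higher (0.58 ± 0.09, edgeR adjusted p = 0.000239). Ifngr1 was called higher in the fit corrected for a limit of 2 reads per exonic base. The lower gene was Cd274, which encodes the T-cell checkpoint ligand PD-L1. Cd274 stood at 15.3, 29.1 and 49.5 CPM in Ly6Chi, against 211, 169, 206, 282 and 241 CPM in Ly6Clo (−2.76 ± 0.25, edgeR adjusted p = 4.35e-06). Its relative Pdcd1lg2, for PD-L2, was lower as well, at 0, 0.418 and 0.931 CPM in Ly6Chi, against 28.9, 22.2, 37.1, 30.9 and 20.9 CPM in Ly6Clo (−5.58 ± 0.55, edgeR adjusted p = 5.87e-06). No Ly6Chi library reached the lowest Ly6Clo library in either gene. Of 8 MHC class II genes 2 were lower in Ly6Chi, H2-DMa (−0.70 ± 0.09) and H2-DMb2 (−0.48 ± 0.17, edgeR adjusted p = 0.0482, lost in 17 of 26 alternatives), and 6, with the invariant chain gene Cd74 among them (−0.42 ± 0.16), were not called. The 2 called genes are 25% of the list, beside 30.9% of all genes called in either direction. Without Ly6Chi replicate 4, 4 of the list were lower. Cd74 was called lower in 7 of 26 alternatives, with DESeq2 and limma voom among them.

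Slfn1, a Schlafen-family gene, and Tarm1, an activating receptor gene of myeloid cells, were among the genes with the smallest p outside these lists. Slfn1 stood at 432, 516 and 635 CPM in Ly6Chi, against 28.9, 42.7, 65.7, 56.7 and 34.8 CPM in Ly6Clo (3.56 ± 0.18, edgeR adjusted p = 3.32e-08). Tarm1 stood at 70.3, 88.3 and 92.9 CPM in Ly6Chi, against 4.92, 5, 2.53, 2.94 and 6.09 CPM in Ly6Clo (4.23 ± 0.23, edgeR adjusted p = 7.45e-08). Both groups were tight and far apart, as the choice of genes by their small p makes likely.

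Ly6Clo cells carried the genes of lung macrophages. Of 19 measured alveolar macrophage markers 16 were lower in Ly6Chi, none was higher and 3 were not called, with a median log2 fold change of −3.44, and 14 to 19 were lower in the 26 alternatives. Summed over the list, Ly6Chi libraries held 1024 to 1587 CPM and Ly6Clo libraries 4863 to 6990. Lpl, the lipoprotein lipase gene, stood at 30.2, 73.5 and 97.8 CPM in Ly6Chi, against 734, 557, 696, 651 and 831 CPM in Ly6Clo (−3.34 ± 0.21, edgeR adjusted p = 3.53e-07). Pparg, which encodes PPARgamma, stood at 43.2, 49.9 and 94 CPM in Ly6Chi, against 195, 197, 181, 314 and 346 CPM in Ly6Clo (−2.07 ± 0.24, edgeR adjusted p = 3e-05). The highest Ly6Chi library stayed below the lowest Ly6Clo library in both genes.

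Plet1, a surface protein gene of alveolar macrophages, stood at 16.6, 44.9 and 152 CPM in Ly6Chi, against 786, 757, 782, 914 and 1164 CPM in Ly6Clo (−3.79 ± 0.48, edgeR adjusted p = 0.00035). Atp6v0d2, a proton pump subunit gene, averaged 62.6 ± 45.4 CPM in Ly6Chi and 752 ± 142 CPM in Ly6Clo (−3.67 ± 0.38, edgeR adjusted p = 6.79e-05). Marco, a scavenger receptor gene (−4.13 ± 0.49), the coagulation factor VII gene F7 (−3.98 ± 0.36) and the cytokine gene Il18 (−1.41 ± 0.14) were lower in Ly6Chi too. Beside AM, scaled with all 43 libraries, Ly6Clo reached levels of the same order for Plet1 (1173 CPM in AM) and Il18 (431 CPM in AM), and lower ones for Marco (261 CPM in AM, against 95.6 ± 28.3 CPM in Ly6Clo) and Siglecf. These differences between AM and Ly6Clo were not tested here.

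Markers of interstitial macrophages, the macrophages of the lung's connective tissue, were also lower in Ly6Chi: 10 of 17 were lower, 1 was higher and 6 were not called (median −1.17). C1qa, a chain of the first complement component, stood at 4.58, 23.7 and 33.1 CPM in Ly6Chi, against 356, 420.2, 142, 109 and 127 CPM in Ly6Clo (−3.27 ± 0.48, edgeR adjusted p = 0.000489). Its partners C1qb (−1.86 ± 0.18) and C1qc (−2.69 ± 0.24) and the membrane protein gene Ms4a7 (−2.44 ± 0.32) changed likewise. The 2 Ly6Clo libraries of litter 93 held more C1qa, C1qc and Ms4a7 than the other 3. AM held C1qa at 3.85 CPM and DC at 281 CPM. Mrc1, the mannose receptor gene that both macrophage lists hold, stood at 1.96, 16.5 and 30.2 CPM in Ly6Chi, against 726, 607, 509, 370.3 and 566 CPM in Ly6Clo (−5.08 ± 0.37, edgeR adjusted p = 3.39e-06). Apoe, the cholesterol-carrying apolipoprotein gene, was lower by less (−0.53 ± 0.09, edgeR adjusted p = 0.000817). It averaged 872 ± 115 CPM in Ly6Chi and 1241 ± 169 CPM in Ly6Clo, so the possible ceiling on abundant genes may bear on this modest change. Its call was kept in the fit corrected for a limit of 2 reads per exonic base.

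Several genes that were far lower in Ly6Chi or had the smallest p-values belong to no cell type marker list. Mmp12, which encodes macrophage elastase, stood at 0, 2.22 and 5.32 CPM in Ly6Chi, against 293, 391, 85.9, 245 and 255 CPM in Ly6Clo (−6.78 ± 0.42, edgeR adjusted p = 3.53e-07). Gal, the gene of the neuropeptide galanin, stood at 1.31, 2.26 and 5.85 CPM in Ly6Chi, against 96.5, 96.6, 142, 119 and 174 CPM in Ly6Clo (−5.53 ± 0.32, edgeR adjusted p = 1.07e-07). Lmna, the nuclear lamin A/C gene, stood at 19, 31 and 37.7 CPM in Ly6Chi, against 337, 315, 318, 353 and 428 CPM in Ly6Clo (−3.59 ± 0.16, edgeR adjusted p = 1.5e-08). All 3 genes were low in every Ly6Chi library and high in all 5 Ly6Clo libraries. They were chosen for a large change or a small p in these libraries, so this separation is no separate support.

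Of genes that did not overlap and averaged at least 50 CPM in a group, the others of the 12 furthest lower were Slco2b1, an organic anion transporter gene (−5.72 ± 0.55), Lhfpl2 (−5.49 ± 0.27), Ahnak2 (−5.47 ± 0.70), the matrix gene Matn2 (−5.36 ± 0.50), Fcrls (−5.31 ± 0.72), the arginine transporter gene Slc7a2 (−5.14 ± 0.45), Nt5e (−5.10 ± 0.59), which encodes the adenosine-forming enzyme CD73, Il1a, Mrc1 and Egr2. Fcrls stood at 260, 317, 50.6, 30.2 and 70.5 CPM in the 5 Ly6Clo libraries, again highest in the 2 of litter 93. Slamf9, a receptor gene of macrophages and dendritic cells, averaged 14.7 ± 5.88 CPM in Ly6Chi and 331 ± 54.8 CPM in Ly6Clo (−4.49 ± 0.21, edgeR adjusted p = 1.5e-08).

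**Figure D4:**
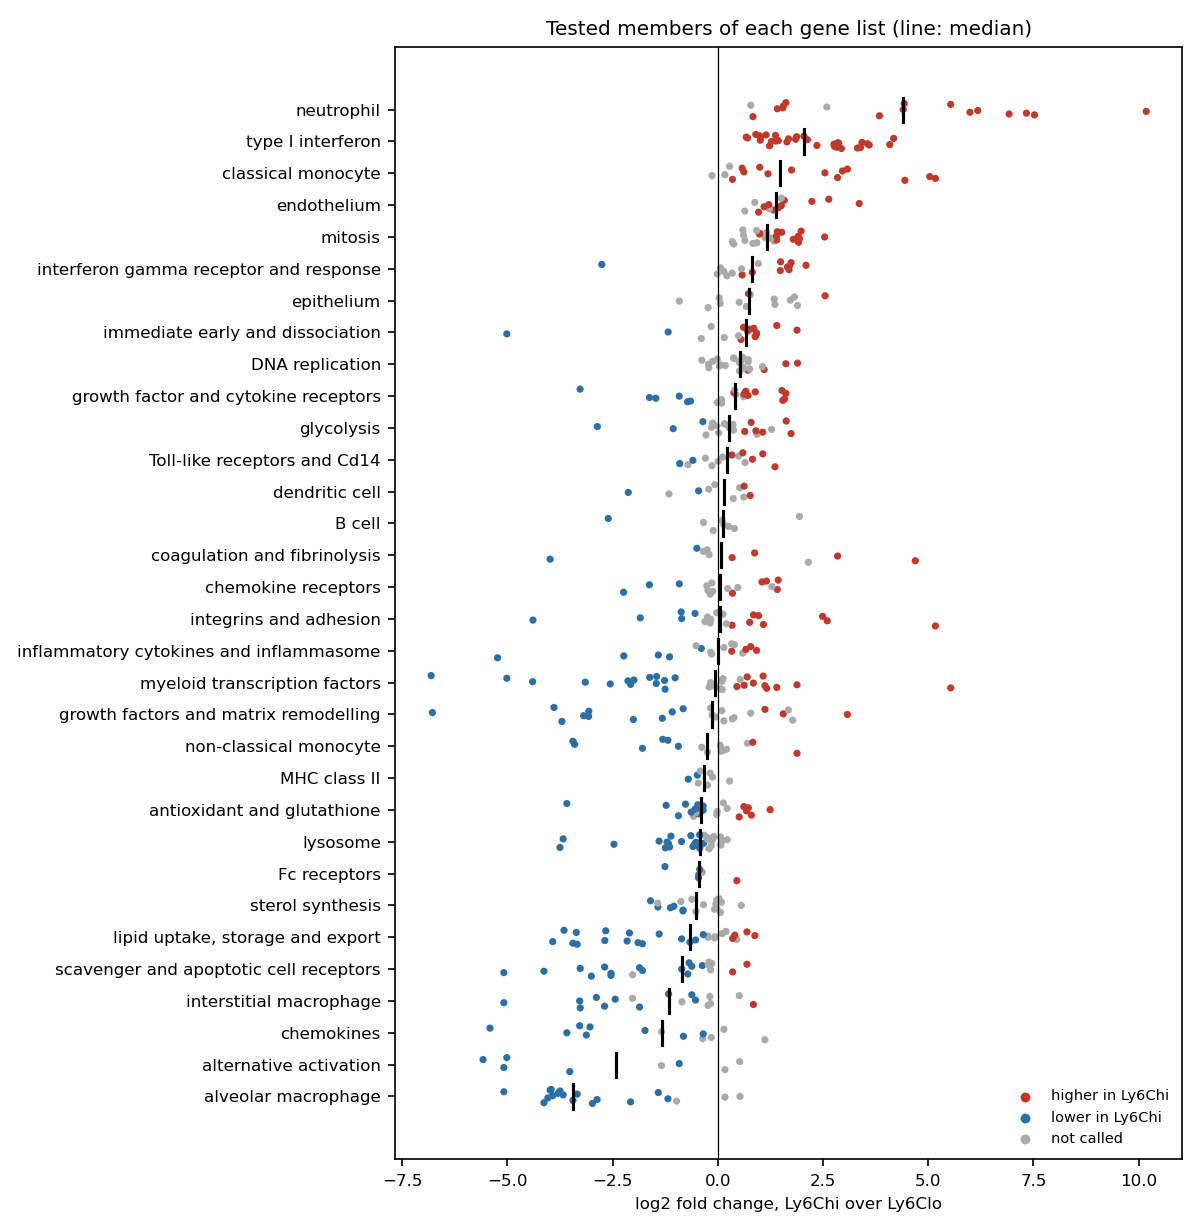
Log2 fold changes, Ly6Chi over Ly6Clo, of the tested members of every list with 5 or more of them, with red for called higher, blue for called lower and grey for not called. Lines are list medians, which run from −3.44 for alveolar macrophage markers to 4.41 for neutrophil markers.

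Lipid handling differed in the same direction as the macrophage markers, which it partly shares. Of 27 genes of lipid uptake, storage and export, 16 were lower in Ly6Chi, 4 higher and 7 not called (median −0.66). The 4 higher ones are a share near the 16.5% of all genes called higher. Abcg1, which exports cholesterol to HDL and whose loss in mice causes lipid to build up in the lung, stood at 30.9, 41.7 and 53.1 CPM in Ly6Chi, against 259, 245, 295, 275 and 301 CPM in Ly6Clo (−2.68 ± 0.14, edgeR adjusted p = 3.5e-08). Abca1, the companion exporter gene, stood at 8.28, 13.3 and 23.6 CPM in Ly6Chi, against 102, 71.1, 67.4, 53 and 53.9 CPM in Ly6Clo (−2.15 ± 0.25, edgeR adjusted p = 2.03e-05). Neither gene overlapped between the groups. Olr1, the oxidised LDL receptor gene, differed by −3.36 ± 0.28, the lysosomal cholesterol transporter gene Npc1 by −1.39 ± 0.14 and the lipid droplet coat gene Plin2 by −0.66 ± 0.09. Npc2, which hands cholesterol to NPC1, did not pass the test (0.11 ± 0.09, edgeR adjusted p = 0.414). Nceh1, a cholesteryl ester hydrolase gene outside the list, averaged 124 ± 19.1 CPM in Ly6Chi and 505 ± 55.7 CPM in Ly6Clo (−2.03 ± 0.12, edgeR adjusted p = 1.07e-07). The 4 higher lipid genes became 2 without Ly6Chi replicate 5 or 6, without Ly6Clo replicate 1, 4 or 5 and without litter 108, and 0 without litter 93.

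Of 19 sterol synthesis genes 6 were lower in Ly6Chi, none higher and 13 not called (median −0.52). Cyp51 (−1.04 ± 0.18) and Sqle (−1.12 ± 0.21), enzymes after squalene formation and of squalene oxidation, were lower. Lysosomal genes leaned one way: 19 of 32 were lower in Ly6Chi and none was higher (median −0.43), with 13 to 22 lower in the alternatives. Ctsd, the cathepsin D gene, stood at 465, 615 and 783 CPM in Ly6Chi, against 1181, 1335, 1116, 1522 and 1947 CPM in Ly6Clo (−1.24 ± 0.15, edgeR adjusted p = 2.97e-05). Ctsl (−1.15 ± 0.10) and the tetraspanin gene Cd63 (−2.47 ± 0.20) were lower as well, and the whole lysosome list summed to 11880 to 15780 CPM in Ly6Chi and 15760 to 23300 CPM in Ly6Clo.

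Many lysosomal promoters carry the letters TCACGTGA, which TFEB, the factor that governs lysosome genes, is known to bind. The stretch from 125 to 66 bases before the start of Ctsd is shown 5′ to 3′ on the strand of the gene, from RefSeq on build GRCm38.p6, with the letters in capitals.
Ctsd: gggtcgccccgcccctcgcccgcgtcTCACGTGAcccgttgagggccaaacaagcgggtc
It lies at chr7:142387893-142387952 on the minus strand.
The letters, which read the same on both strands, were found in the windows from 250 bases before to 50 after the start of 6 of 25 lysosome genes in the table, against 1.12% of all 27025. Among tested genes they were found in 2.19% of those called higher, 2.42% of those called lower and 2.43% of those not called.

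Receptors for dying cells and scavenged ligands were lower in Ly6Chi in 14 of 21 cases, higher in 2 and not called in 5 (median −0.86). Axl, a receptor kinase gene for the uptake of apoptotic cells, stood at 68.7, 95.9 and 141 CPM in Ly6Chi, against 599.9, 488, 513, 664 and 743 CPM in Ly6Clo (−2.54 ± 0.19, edgeR adjusted p = 8.34e-07). Mertk, of the same family, stood at 0.654, 27.7 and 46.8 CPM in Ly6Chi, against 209, 186, 170.2, 198 and 215 CPM in Ly6Clo (−3.00 ± 0.44, edgeR adjusted p = 0.000415). Both were higher in every Ly6Clo library. Of 6 Fc receptor genes, some of which are copies that share sequence, 4 were lower and 1 higher in Ly6Chi: the neonatal Fc receptor gene Fcgrt differed by −1.25 ± 0.10 and Fcgr1 by 0.45 ± 0.11 (edgeR adjusted p = 0.00526, 0.114 without litter 93 and 0.0564 without litter 100).

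Among 33 myeloid transcription factor genes 14 were lower in Ly6Chi, 10 higher and 9 not called (median −0.07). Egr2, which alveolar macrophages need to mature, stood at 0, 1.45 and 6.98 CPM in Ly6Chi, against 75, 47.2, 48.9, 56.7 and 83.5 CPM in Ly6Clo (−5.01 ± 0.56, edgeR adjusted p = 2.4e-05). Bhlhe40 and Bhlhe41, paired repressor genes that sustain alveolar macrophage proliferation and identity, differed by −3.15 ± 0.29 and −4.40 ± 0.48. Vdr, the vitamin D receptor gene, stood at 0, 0 and 0.836 CPM in Ly6Chi, against 33.8, 21.6, 31.2, 19.1 and 26.1 CPM in Ly6Clo (−6.81 ± 0.63, edgeR adjusted p = 3.41e-06). In Ly6Chi 5 of the 6 libraries had no Vdr count, so its fitted fold depends on the prior count. Runx1 was lower by less (−1.26 ± 0.12). In the other direction stood Klf2 (1.40 ± 0.18), which keeps leukocytes quiescent, Irf5 (1.12 ± 0.10), which drives inflammatory cytokine genes, and Cebpd (1.16 ± 0.14). Spi1, the gene of the myeloid master regulator PU.1, averaged 651 ± 51.6 CPM in Ly6Chi and 599 ± 89.2 CPM in Ly6Clo and was not called (0.11 ± 0.10, edgeR adjusted p = 0.433).

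The growth factor receptors that steer these cells were divided, with 9 of 21 higher in Ly6Chi, 6 lower and 6 not called (median 0.41); without litter 93, 4 were higher. Tgfbr1, a receptor chain for TGF-beta, stood at 176, 201 and 229.7 CPM in Ly6Chi, against 521, 426, 631, 587 and 623 CPM in Ly6Clo (−1.47 ± 0.10, edgeR adjusted p = 3.53e-07). Tgfbr2, the chain that binds the ligand, stood at 52.6, 60.6 and 72.6 CPM in Ly6Chi, against 226, 189.8, 169, 213 and 168 CPM in Ly6Clo (−1.62 ± 0.13, edgeR adjusted p = 7.99e-07). Both chains were lower in every Ly6Chi library. For GM-CSF, the signalling chain gene Csf2rb was lower (−0.72 ± 0.09, edgeR adjusted p = 3.38e-05), whereas the ligand-binding chain gene Csf2ra was not called (−0.01 ± 0.10, edgeR adjusted p = 0.935). The M-CSF receptor gene Csf1r averaged 636 ± 90.8 CPM in Ly6Chi and 585 ± 59.2 CPM in Ly6Clo and was not called either (edgeR adjusted p = 0.58). Csf3r, the receptor gene for the neutrophil growth factor G-CSF, stood at 192, 292 and 327 CPM in Ly6Chi, against 78.1, 84.4, 117, 108 and 78.3 CPM in Ly6Clo (1.55 ± 0.17, edgeR adjusted p = 1.15e-05). Met, the receptor gene for hepatocyte growth factor, was higher (1.52 ± 0.27) and the semaphorin co-receptor gene Nrp2 lower (−3.27 ± 0.48).

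Adhesion and homing receptors went both ways. Of 20 integrin and adhesion genes 8 were higher, 5 lower and 7 not called in Ly6Chi (median 0.05). The 5 lower include Itgax, which follows the gate. The higher ones numbered 4 without Ly6Chi replicate 1 or 4 or Ly6Clo replicate 1, 5 without Ly6Clo replicate 3 or 5 or litter 108, and 3 without litter 93. Itgb7, the integrin beta chain gene of gut-homing leukocytes, stood at 187, 235 and 289 CPM in Ly6Chi, against 38.1, 33.9, 68.3, 43.4 and 17.4 CPM in Ly6Clo (2.60 ± 0.25, edgeR adjusted p = 5.82e-06). Itgam, the CD11b gene, was higher (1.09 ± 0.18), while its partner Itgb2 averaged 591 ± 107 CPM in Ly6Chi and 644 ± 145 CPM in Ly6Clo and was not called. Of 16 chemokine and chemoattractant receptor genes 5 were higher and 3 lower in Ly6Chi. The 3 lower ones are to be read beside the 14.3% of all genes called lower. The lower ones include C3ar1 (−1.63 ± 0.32), a receptor gene for a complement fragment, and Fpr1 (−0.91 ± 0.11), for formylated peptides. The 5 higher ones became 1 to 3 when any Ly6Clo library, any litter or Ly6Chi replicate 1, 4 or 5 was left out.

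Genes of the IL-1 family and of chemokines were among those lower in Ly6Chi. Il1a, which encodes the alarmin IL-1alpha, stood at 0, 4.10 and 11.7 CPM in Ly6Chi, against 142, 167, 265, 226 and 173 CPM in Ly6Clo (−5.23 ± 0.41, edgeR adjusted p = 2.33e-06). Il1rn, whose product blocks the IL-1 receptor, stood at 73.3, 99.8 and 180.3 CPM in Ly6Chi, against 436, 415, 423, 589 and 685 CPM in Ly6Clo (−2.23 ± 0.20, edgeR adjusted p = 4.47e-06). Il1b was lower by less (−1.15 ± 0.21), so genes of agonists and of the antagonist were lower together. Of 16 inflammatory cytokine and inflammasome genes 5 were lower, 4 higher and 7, with Tnf (−0.15 ± 0.29) among them, not called. The higher ones include the pore-forming Gsdmd (0.67 ± 0.11) and the caspase gene Casp4 (0.92 ± 0.18), parts of the pyroptosis machinery. Without litter 93, 2 of the list were higher.

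None of 13 chemokine genes was higher in Ly6Chi and 8 were lower (median −1.34). Cxcl16, a membrane-bound chemokine gene, stood at 7.91, 11.5 and 30.2 CPM in Ly6Chi, against 167, 206, 109, 127 and 52.2 CPM in Ly6Clo (−3.04 ± 0.37, edgeR adjusted p = 5.87e-05). Ccl6 differed by −0.81 ± 0.11 and the neutrophil attractant gene Cxcl2 by −1.73 ± 0.36, its Ly6Clo libraries at 193, 228, 127, 25.8 and 6.96 CPM, so that litter 93 was high and replicate 5 low, and without the litter term its adjusted p was 0.167. Without litter 100, 5 of the list were lower.

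Growth factor and matrix genes were more often lower: 10 of 23 were lower in Ly6Chi, 3 higher and 10 not called (median −0.14), and 5 were higher without Ly6Clo replicate 3. Igf1, the insulin-like growth factor gene that macrophages supply to lung epithelium, stood at 1.96, 8.43 and 14.4 CPM in Ly6Chi, against 167, 142, 93.5, 87.6 and 68.7 CPM in Ly6Clo (−3.70 ± 0.35, edgeR adjusted p = 4.15e-06). Spp1, the osteopontin gene, stood at 47.1, 82.5 and 144 CPM in Ly6Chi, against 804, 642, 726, 628 and 877 CPM in Ly6Clo (−3.07 ± 0.29, edgeR adjusted p = 1.8e-05). Adamdec1, a secreted metalloprotease gene, was lower too (−3.89 ± 0.44). Arg1, of the alternative activation list, of which 5 of 8 were lower and none higher, stood at 1.18, 4.74 and 9.59 CPM in Ly6Chi, against 79.9, 87.1, 39.6, 59.6 and 38.3 CPM in Ly6Clo (−3.52 ± 0.44, edgeR adjusted p = 5.12e-05). None of these overlapped between the groups. Clotting genes went both ways, with 4 of 10 higher and 2 lower, and 2 higher without Ly6Chi replicate 6, Ly6Clo replicate 1 or 5, litter 93 or litter 108. The 2 lower ones, to be read beside the 14.3% of all genes called lower, became 1 without Ly6Clo replicate 5, litter 93 or litter 108. F5, the factor V gene, stood at 37.2, 53.3 and 79.8 CPM in Ly6Chi, against 3.07, 5.55, 0.843, 0 and 0 CPM in Ly6Clo (4.69 ± 0.55), F13a1, the transglutaminase gene that cross-links fibrin, averaged 920.1 ± 258 CPM in Ly6Chi and 169 ± 159 CPM in Ly6Clo (2.85 ± 0.51, edgeR adjusted p = 0.00285), and F7 was lower as given above. In F13a1 the 2 Ly6Clo libraries of litter 93 stood above the other 3.

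Genes of pathogen sensing were called in part: 5 of 14 Toll-like receptor pathway genes were higher in Ly6Chi and 2 lower (median 0.23). The lower ones are a share near the 14.3% of all genes called lower. Without Ly6Chi replicate 4, 4 were lower, and without litter 93, 3 were higher. Tlr13, a receptor for bacterial ribosomal RNA in mice, differed by 0.82 ± 0.15 and the adaptor gene Myd88 by 1.07 ± 0.18, whereas the lipopolysaccharide receptor gene Tlr4 was lower (−0.90 ± 0.19, edgeR adjusted p = 0.00219, and 0.1 without the litter term).

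Of 25 mitosis genes 12 were higher in Ly6Chi and none lower (median 1.16). Of 25 DNA replication genes 4 were higher and none lower (median 0.52), which is 16% of the list, near the 16.5% of all genes called higher. Ccnb2, a mitotic cyclin gene, stood at 247, 295 and 316 CPM in Ly6Chi, against 135, 188, 31.2, 47.1 and 48.7 CPM in Ly6Clo (1.92 ± 0.36, edgeR adjusted p = 0.00211). The 2 Ly6Clo libraries of litter 93 were the higher ones. Plk1, a mitotic kinase gene, stood at 30.8, 42.8 and 79.1 CPM in Ly6Chi, against 17.2, 31.6, 7.58, 7.36 and 6.96 CPM in Ly6Clo (1.94 ± 0.41), again highest in litter 93 among Ly6Clo libraries.

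The counts of both lists depended on the libraries. Without litter 93, 19 mitosis and 14 replication genes were higher, and without litter 100 or litter 108, 3 mitosis genes were, with 3 or 0 replication genes. Leaving out Ly6Clo replicate 1, 3, 4 or 5 left 4, 6, 4 or 3 mitosis genes. Replication genes higher in Ly6Chi numbered 8 without Ly6Chi replicate 1 or Ly6Clo replicate 2 and 1 without Ly6Clo replicate 5. Mki67, the proliferation antigen gene, was not called (0.38 ± 0.33, edgeR adjusted p = 0.426), and the called replication genes Mcm4 (0.72 ± 0.19) and Mcm5 (1.10 ± 0.33) lost their calls in 4 and 7 of 26 alternatives. Cdc45 (1.90 ± 0.49) lost its call without litter 108 (0.0592). In hyperoxia 24 of the 25 mitosis and 21 of the 25 replication genes were called higher, but whether the conditions differ was not tested.

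Genes of redox balance and iron were lower more often than higher, 12 against 6 of 24 (median −0.40), and without litter 93 or litter 108 the 12 became 5, and without Ly6Clo replicate 5 they became 7. Slc40a1, the iron exporter ferroportin, stood at 2.62, 6.35 and 25.3 CPM in Ly6Chi, against 234, 157, 49.7, 69.2 and 65.2 CPM in Ly6Clo (−3.59 ± 0.53, edgeR adjusted p = 0.00041). Fth1, the ferritin heavy chain gene (−0.77 ± 0.11), Blvrb, of haem breakdown (−1.23 ± 0.20), and the peroxiredoxin gene Prdx1 (−0.63 ± 0.10) were lower as well. Gsr, which recycles glutathione (0.80 ± 0.13), the peroxidase gene Gpx3 (1.24 ± 0.18) and Prdx6 (0.68 ± 0.10) were higher. Of 21 glycolysis genes 6 were higher, 3 lower and 12 not called, with Hk1 (1.74 ± 0.24) and Pkm (0.79 ± 0.12) higher and Aldoc (−2.86 ± 0.44) lower. The 3 lower glycolysis genes are a share near the 14.3% of all genes called lower. Without litter 108, 3 were higher and 1 lower.

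Genes listed as markers of other lung cells had counts in both gates. Bulk counts do not tell which cells these transcripts came from, and the sorted cells may make some of them. Of 14 endothelial markers 10 were higher in Ly6Chi and none lower (median 1.38), and their summed level was 456 to 1333 CPM in Ly6Chi and 167.8 to 575.5 CPM in Ly6Clo. Sox17 stood at 12.4, 21.6 and 31.8 CPM in Ly6Chi, against 2.46, 2.22, 2.53, 2.21 and 8.70 CPM in Ly6Clo (2.64 ± 0.43), and Tie1 (3.36 ± 0.63), Esam (2.24 ± 0.43) and Egfl7 (1.51 ± 0.36, adjusted p 0.0527 without litter 93) were higher. The endothelial count fell to 5 without Ly6Chi replicate 2, 6 without replicate 3, 4 without replicate 4 and 4 without replicate 6, and to 4 without litter 93 and 6 without litter 100. In hyperoxia 0 of 11 endothelial markers were called. Of 14 epithelial markers 2 (14.3%) were higher, near the 16.5% of all genes called higher. They were Napsa (0.73 ± 0.10) and Aqp5 (2.55 ± 0.72, edgeR adjusted p = 0.0191, lost in 6 of 26 alternatives). Summed levels of the list were 872 to 3877 CPM in Ly6Chi and 917 to 2539 CPM in Ly6Clo. Napsa alone averaged 580.8 ± 50.05 CPM in Ly6Chi and 351.4 ± 63.33 CPM in Ly6Clo. Without Ly6Chi replicate 2, 4 of the list were higher. The B cell list was called in 1 of 8 genes, Cd22 (−2.60 ± 0.82, edgeR adjusted p = 0.0296, lost in 7 of 26 alternatives), and the dendritic cell list in 4 of 10. Those 4 include Cd24a (−2.13 ± 0.28), Irf8 (0.63 ± 0.10) and Batf3 (0.77 ± 0.20, edgeR adjusted p = 0.0113), whose call was lost without Ly6Clo replicate 5 (0.0531), litter 93 (0.179) or litter 108 (0.0669). In the T and NK cell list 1 gene was tested, Il7r, at 0, 0.327 and 7.85 CPM in Ly6Chi and 54.7, 32.2, 62.4, 37.5 and 43.5 CPM in Ly6Clo (−5.21 ± 0.76), and the list summed to 0.418 to 215.9 CPM in Ly6Chi and 52.2 to 955.3 CPM in Ly6Clo. Mesenchymal, erythroid, and mast cell, basophil and platelet lists had 1, 0 and 3 tested genes and no call. The part of these transcripts in the differences above was not tested.

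The same contrast in hyperoxia, with 5 Ly6Chi and 5 Ly6Clo libraries that the fit above did not use, called 3373 of 10638 genes (31.7%). Of the 3380 genes called in normoxia 3300 were tested there, 3247 of them (98.4%) had the same sign, and 2346 were called in the same direction, which is 71.1% of those tested and 69.6% of the hyperoxic calls. None was called in the opposite direction. Of the 605 genes past 2-fold 577 were tested, 577 had the same sign and 538 (93.2%) were called. Vcan differed by 2.99 ± 0.16 in hyperoxia, Usp18 by 2.80 ± 0.42, Mrc1 by −5.13 ± 0.50 and Mmp12 by −6.56 ± 0.52. The libraries of both conditions come from the same 3 litters.

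**Figure D5:**
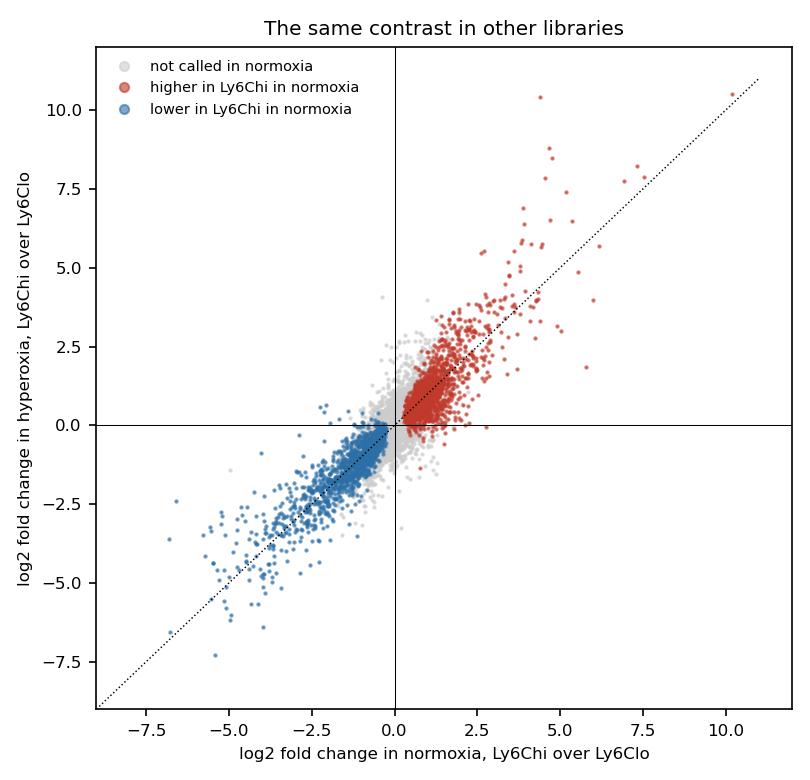
Log2 fold change, Ly6Chi over Ly6Clo, in normoxia (x axis) and in hyperoxia (y axis) for every gene tested in both, with red for genes called higher and blue for genes called lower in normoxia and grey for the rest. The dotted line marks equal values, and 3247 of the 3300 genes called in normoxia lie on the same side of 0 in both.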

How the data were processed

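Messenger RNA of sorted lung cells was amplified with SMART-Seq v4 and sequenced after Nextera XT tagmentation, per the labels' protocols. The authors deposited whole-number counts per gene. The submitters' processing notes name TopHat, HTSeq 0.4.1, FastQC, Picard, SAMtools and genome build NCBIM37, while the annotation is not given in the sources used here. Counts were filtered with filterByExpr (minimum count 10, minimum total 15), normalised by TMM and fitted with edgeR 4.0.16 in R 4.3.3 (robust quasi-likelihood, litter as additive block), and p-values were adjusted by Benjamini-Hochberg over all genes tested. Fits with DESeq2 1.42.0 and limma voom 3.58.1 were alternatives. Tested on simulated data for this comparison, over 10731 genes, the fit found 59 of 100 genes changed by 1 on the log2 scale and 97 of 100 changed by 2, with 4 false calls. Only these genes were changed, they were drawn from genes with higher mean counts, and no litter effect was simulated. Recovery and false calls in the real libraries, where 30.9% of genes were called, may therefore differ. Counts without a gene symbol were 0.824% of the total. Genes were named by a fixed rule: sort markers, the 12 largest changes in each direction, the 5 smallest p-values in each direction, and up to 4 called genes in each direction of a list. The 12 were taken from called genes whose library values did not overlap between the groups. Their mean in the higher group was at least 50 CPM. Separation of the libraries in genes so chosen is no separate support. The genes Hp, Fn1, Chil3, Treml4, Cx3cr1, Fabp4, Mpo, S100a8, S100a9, Retnlg, Mmp9, Ly6g, Isg15, Irf7, Rsad2, Ifit1, Oasl1, Cmpk2, Ifitm3, Ifngr1, Ifngr2, Cd74, Pparg, Plet1, Atp6v0d2, Marco, C1qa, Apoe, Abca1, Npc2, Plin2, Ctsd, Mertk, Klf2, Spi1, Csf1r, Csf2ra, Itgb2, Tnf and Mki67 were chosen after their values were seen. The groups, lists and members were chosen with earlier results of these data known. Some genes that the rule names are not reported here.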

Additional observations from a re-analysis of the deposited data

Results flagged for a closer look

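Among the 175 genes named above, each population gave a group of 5 or 6 libraries, and in 41 of 350 such groups 1 library stood further from the rest than Dixon's test at the 95% level allows. For normally distributed values chance gives about 1 in 20 groups, but CPM values need not be normal, and several flags are few counts beside libraries without any. The rate that chance gives here is therefore not known, and the genes are not independent of each other. In Ly6Clo replicate 3, of litter 100, the highest values of the group were 14.3 CPM for Ngp, 19.4 CPM for Lcn2, 2.53 CPM for Mpo, 5.06 CPM for Olfm4, 3.37 CPM for Cd177, 11.8 CPM for Stfa3, 16.0 CPM for Stfa2l1, 147 CPM for S100a9, 110.4 CPM for Retnlg and 40.4 CPM for Aqp5. In Ly6Chi replicate 4, of litter 100, they were 151 CPM for Atp6v0d2, 6.05 CPM for Slco2b1, 6.05 CPM for Ahnak2, 22.5 CPM for Slc7a2, 25.8 CPM for Slamf9, 163 CPM for Nceh1, 57.7 CPM for Cd63, 13.7 CPM for Bhlhe41, 180.3 CPM for Il1rn and 30.2 CPM for Cxcl16. In Ly6Chi replicate 3, of litter 100, they were 350.1 CPM for Gngt2, 222 CPM for Ear2, 62.8 CPM for Fabp4, 221 CPM for Stfa3, 131 CPM for Stfa2l1, 438 CPM for S100a9 and 299 CPM for Csf2rb. Ly6Chi replicate 1 was highest of its group, at 5.85 CPM for Gal and 0.836 CPM for Vdr. Ly6Chi replicate 2 was highest of its group, at 6.98 CPM for Egr2. Ly6Chi replicate 5 was highest of its group, at 1192 CPM for Ccr2 and 1035 CPM for Ifngr1. Ly6Chi replicate 6 was highest of its group, at 725 CPM for Ltf, 7.85 CPM for Il7r and 19.2 CPM for Cd22. Ly6Clo replicate 1 was highest of its group, at 79.9 CPM for Sqle. Ly6Clo replicate 2 was highest of its group, at 192 CPM for Mmp9 and 99.4 CPM for Mcm5. Ly6Clo replicate 5 was highest of its group, at 291 CPM for Prdx6 and 8.70 CPM for Sox17. Ly6Chi replicate 6 was lowest of its group for Ifit3, at 75.4 CPM. The cause of these values was not tested.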

How the results depend on the processing

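Beside the 3380 genes called in all 11 libraries, the fit without Ly6Clo replicate 5 called 2252, of which 2198 were among the 3380, that without litter 93 called 1883 (1713 shared) and that without litter 108 called 2022 (1992 shared). With 1 library left out at a time the fits called 2252 to 3638 genes, of which 450 to 623 were past 2-fold, and with 1 litter left out 1883 to 3313, of which 436 to 619 were past 2-fold. No gene called in the 11-library fit was called in the opposite direction in any of the 26 alternatives. DESeq2 called 3657 genes and limma voom 3385. A fit corrected for a limit of 2 reads per exonic base, which was not planned, called 3374, of which 3338 were shared. Upper quartile scaling called 3372, of which 43.9% were higher in Ly6Chi, against 53.6% with the trimmed mean of M values, and moved the median change of all genes to −0.05. Past 2-fold there were 899 genes with no filter on low counts and 421 with a minimum count of 50. Of the 174 named genes tested, 157 were called, 140 of them in every alternative, 17 lost their call in at least 1, 7 others gained one, and 0 changed direction. No paired analysis was possible because the labels pair no libraries and the replicate numbers used here follow accession order. Sorted cells of a litter may come from the same pups, and genes with few counts carry the widest errors.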

Other observations

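MHC class II genes gave different calls in the 2 conditions. H2-Aa differed by 1.64 ± 0.33 and H2-Ab1 by 1.08 ± 0.25 between Ly6Chi and Ly6Clo in hyperoxia, both called higher by edgeR with Benjamini-Hochberg adjustment, against −0.24 ± 0.46 and −0.46 ± 0.21 in normoxia, neither called. Of the 8 MHC class II genes tested, 4 were called higher and 0 lower in hyperoxia, against 0 higher and 2 lower in normoxia. The difference between the conditions was not tested.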
